A study of Mus musculus with 30 samples.

Results

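The genes that encode the proteins of the cytosolic ribosome were followed in 15 mice, in both the subventricular zone (SVZ) and the striatum. Members were chosen by symbol alone (Rpl or Rps with a number, Rplp0 to Rplp2 and Rpsa, without names ending in -ps) and were kept in a tissue when 3 or more of its libraries had over 1 CPM (a read count scaled to the size of its library). In the SVZ 89 symbols matched and 81 passed, among 16375 tested genes of 53278 in the table. In the striatum 88 matched and 81 passed, among 15419 tested of 50508. The 2 tested sets shared 80 genes, with Rpl32l tested only in the SVZ and Rps3a3 only in the striatum. Each set held 45 large subunit genes, 31 small subunit genes, 4 listed paralogs (Rps4l, annotated as a transcribed processed pseudogene, among them) and 1 other processed copy.

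The study's methods list adult C57Bl/6 mice of both sexes, aged 6 to 8 weeks, beside transgenic mice. Strain, sex and age are not given for each sequenced mouse, nor whether that age is at infusion. All mice received a 4-week infusion from an osmotic minipump. NestinTK+ mice carried herpes thymidine kinase driven by a Nestin promoter with the second-intron enhancer, so that ganciclovir (GCV) kills dividing Nestin-expressing cells; NestinTK- mice were their wild-type littermates. The groups were NestinTK+GCV+ (5 mice, A1 to A5, the ablated group), NestinTK-GCV+ (3 mice, G1 to G3), NestinTK-PBS+ (3 mice, P1 to P3) and NestinTK+PBS+ (4 mice, T1 to T4). A name stands for the same mouse in both tissues, and the last 3 groups together formed the 10 controls. Labels call the SVZ samples neural precursor cells, but the tissue was dissected whole, and spiny neuron markers took 0.333 to 1.21% of its counts against 0.0439 to 0.13% for neuroblast markers.

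The cytosolic ribosome joins a small subunit, which decodes the mRNA, to a large subunit, which forms the peptide bond. Its proteins are made from single-copy genes scattered over the genome, surrounded by many processed pseudogenes. Their mRNAs begin with a cytosine and a run of pyrimidines, the 5′ terminal oligopyrimidine (TOP) motif, through which mTOR signalling and Larp1 set their translation and stability. Cells that grow and divide, such as neural precursors, are known for high ribosome production.

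The pyrimidine start named above was looked for at the annotated starts. The windows below are from RefSeq (GRCm38.p6), 15 bases before and 15 from the annotated start, 5′ to 3′, with the unbroken pyrimidine run through the first transcribed base in capitals. They were chosen after values were seen. Rpl35a, Rpl28 and Rps18 have a run and passed the striatal test of genotype under GCV described below, and Rps10 has a run and did not. For Rpl35a only the annotated start with the longest run is printed. Its other starts have 1 pyrimidine from the first base or begin with an A. Rpl41 has no run at the annotated base and passed, and Rps25 and Rplp0 have none and did not.
Rpl35a, chr16:33056467-33056496, plus strand: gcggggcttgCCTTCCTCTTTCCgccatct
Rpl28, chr7:4792950-4792979, plus strand: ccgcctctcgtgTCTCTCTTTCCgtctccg
Rps18, chr17:33955651-33955680, minus strand: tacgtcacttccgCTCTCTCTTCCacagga
Rps10, chr17:27635230-27635259, minus strand: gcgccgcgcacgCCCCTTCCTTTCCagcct
Rps25, chr9:44407699-44407728, plus strand: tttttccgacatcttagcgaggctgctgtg
Rplp0, chr5:115559452-115559481, plus strand: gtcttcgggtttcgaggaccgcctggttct
Rpl41, chr10:128549154-128549183, minus strand: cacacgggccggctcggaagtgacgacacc
RefSeq held 76 windows of 300 bases for 64 of the matching symbols. A cytosine start followed by at least 4 pyrimidines was found in 18.4% of these and in 2.51% of all 32851 windows. The ETS-type letters CCGGAAG occurred on either strand in 35.5% against 8.86%, the YY1-type letters AAGATGGC in 10.53% against 2.75%, and TATAAA in 10.53% against 13.6%. These are matches of letters and not measured sites.

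Library depth in the SVZ was 8360810 to 9595100 counts in ablated mice and 8947140 to 21056000 in controls. In the striatum it was 2626960 to 3371030 in ablated mice and 2780470 to 4693440 in controls, where only T2 lay below 3556900. Depth was thus partly aligned with the ablated comparison. Each library also carries a library number and a mouse number. In both tissues every GCV library had a lower library number than every PBS library, so treatment was fully aligned with this order. P1 to P3, and also G1 and T3, had lower mouse numbers than all ablated mice. The part of these alignments in the contrasts of GCV against PBS was not tested. Of the SVZ counts, the dividing-cell list took 0.000801 to 0.00401% in the ablated mice and 0.0042 to 0.0156% in controls, with no overlap. P1, P2 and T1 had 4.49 to 9.88% of SVZ counts on Ttr, a choroid plexus transcript.

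The share of SVZ counts on ribosomal protein genes overlapped between all groups. The share was 2.40, 2.02, 2.05, 2.37 and 1.91% in A1 to A5, 2.69, 2.55 and 1.81% in G1 to G3, 2.29, 2.21 and 2.56% in P1 to P3, and 2.40, 2.66, 2.57 and 2.09% in T1 to T4. The lowest library was G3, a control, and the groups overlapped. In the striatum the shares were 2.18, 2.09, 2.03, 2.17 and 2.15% in A1 to A5 and 1.79, 1.93 and 1.96% in G1 to G3. They were 2.10, 1.95 and 2.17% in P1 to P3 and 1.91, 1.76, 2.06 and 1.92% in T1 to T4. Every NestinTK-GCV+ striatum lay below every NestinTK+GCV+ striatum, while T2 had the lowest share of all.

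**Figure D1:**
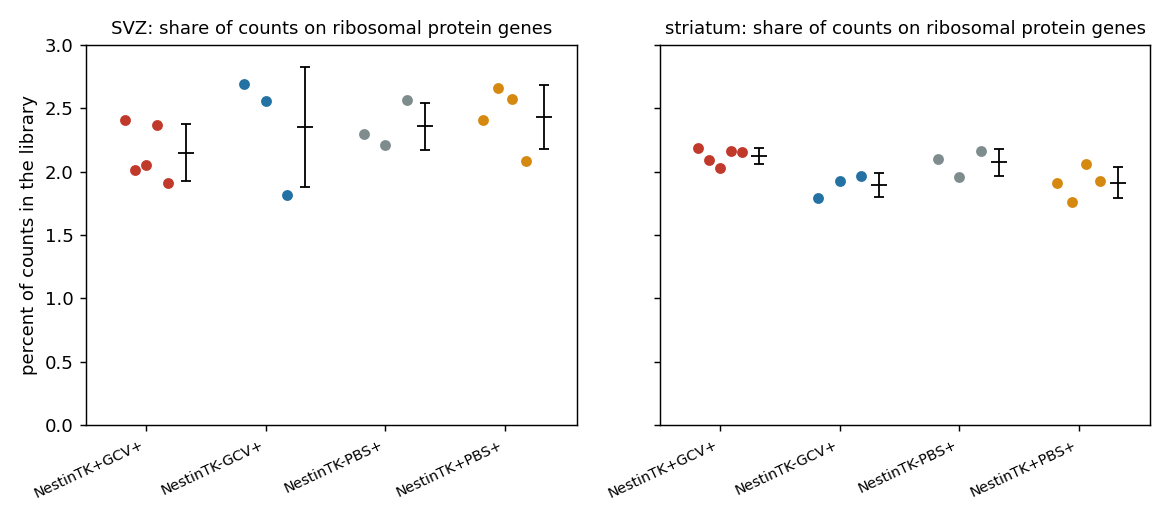
Percent of each library's counts on the ribosomal protein genes, by group, for the SVZ (left) and the striatum (right); each point is 1 mouse, the black mark is the mean with an error bar of 1 SD. SVZ groups overlap, with G3 lowest at 1.81%, and in the striatum the NestinTK-GCV+ mice (1.79 to 1.96%) lie below the NestinTK+GCV+ mice (2.03 to 2.18%).

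Levels per kilobase of transcript differed widely between members. In SVZ controls the highest was Rplp1, a protein of the stalk that recruits elongation factors, at 2559 CPM per kb, followed by Rps14 at 1589 and Rps29 at 1532, around a median of 333 for the 81 genes. Striatal reads come from the 3′ end of the transcript, so counts there do not scale with its length. In striatal controls Rplp1 (1780 ± 230 CPM, SD, n = 10), Rps21 (1444 ± 189) and Rps14 (1316 ± 288) had the most counts, and the median member was at 145 CPM. The median member varied by 18.1% (coefficient of variation over 10 controls) in the SVZ and by 18.0% in the striatum.

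Some symbols fell outside the filter. Rpl24, a core large subunit gene, had 9 counts in all SVZ libraries together and 1 count in the striatum; 47.0% of its exon bases overlap Gm28037 in the annotation. The tissue-restricted paralogs stayed near 0, with Rpl3l (the muscle paralog) at 14 and 22 counts in all, and Rpl10l and Rpl39l (testis paralogs) at no more than 4. Rps3a3, a processed pseudogene, passed in the striatum at 0 to 3.15 CPM and just missed in the SVZ at 0.228 to 1.21 CPM. Rps4l and Rpl32l are also annotated as processed pseudogenes.

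In the SVZ no ribosomal protein gene passed the adjusted test between the ablated mice and the pooled controls. The median log2 fold change of the 81 members was −0.03 and that of all tested genes −0.03; 50 members were below 0 and 31 above. At an unadjusted p under 0.05, 2 members were lower and 1 higher, where 6.09% and 3.73% of all genes were (edgeR quasi-likelihood test). No member passed an adjusted p under 0.05 in either direction, a level reached by 0.00611% of genes downward and 0% upward. By subunit the medians were −0.01 for the large and −0.08 for the small.

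Rplp0, the stalk base protein and a common reference gene in PCR (chr5:115559467-115563727, plus strand), had the lowest p. It stood at 198, 190, 221, 191 and 160 CPM in A1 to A5. Controls were at 433, 229 and 223 in G1 to G3, 234.9, 268 and 323 in P1 to P3, and 285, 264.7, 225 and 275 in T1 to T4. All ablated mice lay below all controls, with A3 at 220.7 and G3 at 223.4 CPM, a separation found for 0.147% of genes. The log2 fold change was −0.52 ± 0.16 (SE; adjusted p = 0.352, edgeR), so Rplp0 did not pass.

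Rpl29, a large subunit protein, was at 144, 198, 177, 159 and 163 CPM in A1 to A5 and 78.4 to 165 CPM in the 10 controls. The groups overlapped, and the log2 fold change was 0.46 ± 0.16 (adjusted p = 0.385, edgeR). Rps9, a small subunit protein that binds near the mRNA entry, was at 252 to 320 CPM in ablated mice and 253 to 404 CPM in controls. Its log2 fold change was −0.28 ± 0.12 (adjusted p = 0.470, edgeR).

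**Figure D2:**
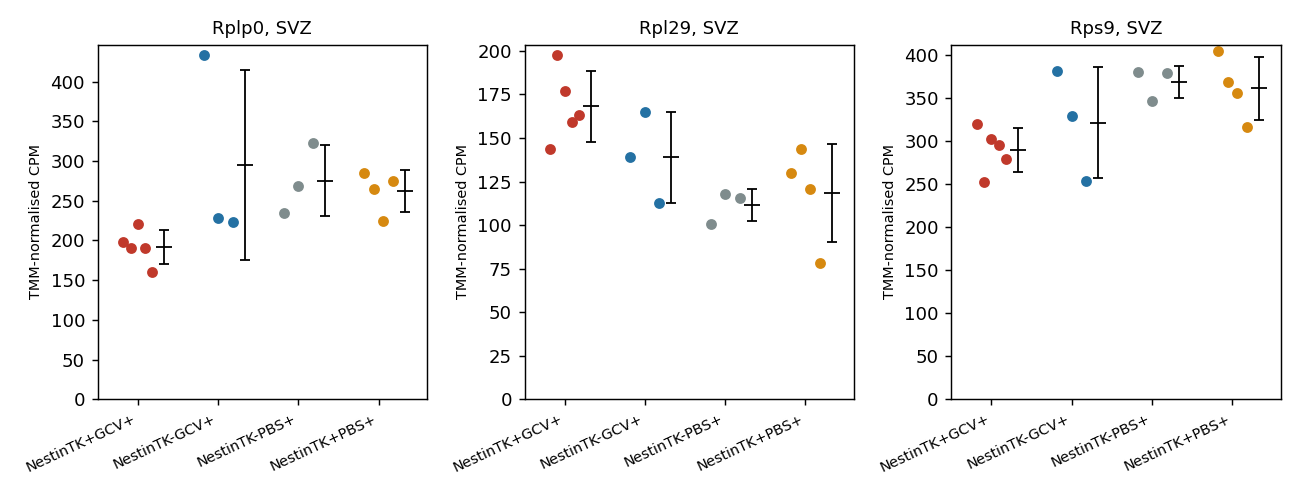
TMM-normalised CPM of Rplp0, Rpl29 and Rps9 in the SVZ by group; points are mice and black marks are means with error bars of 1 SD. Rplp0 is at 160 to 221 CPM in NestinTK+GCV+ mice and at 223 CPM or above in all controls, while Rpl29 and Rps9 overlap between ablated mice and controls.

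The SVZ was then compared by its 4 groups. No member had an adjusted p under 0.05 in any of 5 contrasts, and neither did any other gene. At an unadjusted p under 0.05, 3 members were called for GCV against PBS in NestinTK+ (7.13% of all genes) and 1 for NestinTK+ against NestinTK- under GCV (7.45%). There were 2 for GCV against PBS in NestinTK- (7.65%), and none for genotype under PBS (2.69%) or for the interaction of genotype and treatment (5.09%). Member medians lay between −0.06 and 0.03. The spread between mice that edgeR estimated over all genes (biological coefficient of variation) was 0.939 here and 0.251 in the striatum.

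In the SVZ many members were low in the same mice. The median correlation between 2 members over the 15 libraries was 0.48, and 93.5% of the 3240 pairs were above 0. All points share library and depth. G3 was among the 4 lowest libraries for 74 of 81 members, T4 for 58 and A5 for 52. These belong to 3 different groups. In the same libraries the mitochondrial genome took 6.69% of counts in G3, 9.17% in T4 and 13.1% in A5, within an overall range of 6.69 to 17.0%; its part in the result was not tested.

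In the striatum most members lay above 0 in the ablated mice against the pooled controls, and none passed the adjusted test. The median log2 fold change was 0.11 against 0.00 for all genes, with 63 members above 0 and 18 below. At an unadjusted p under 0.05, 16 members were higher and 0 lower, where 5.19% and 5.31% of all genes were. At an adjusted p under 0.05 the background was 0.0973% higher and 0.0843% lower, and 0 members passed with edgeR. In bulk tissue, fewer cells of a type and less RNA per cell cannot be told apart.

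Rpl41, the smallest ribosomal protein (chr10:128548114-128549305, minus strand), had the lowest p. It was at 206, 197, 216, 195 and 172 CPM in A1 to A5. Controls stood at 126, 122 and 155 in G1 to G3, 182, 150 and 134 in P1 to P3, and 165, 151, 167 and 144 in T1 to T4. Only A5 fell within the control range, below P1. The log2 fold change was 0.40 ± 0.11 (adjusted p = 0.118, edgeR). Rps4x, the X-linked S4 protein, differed by 0.46 ± 0.14 (adjusted p = 0.196), and Rpl3, next to the peptidyl transferase centre, by 0.36 ± 0.13 (adjusted p = 0.305). Rpl35 at the exit tunnel (0.40 ± 0.13, adjusted p = 0.234) and Rpl17 (0.53 ± 0.19, adjusted p = 0.333) completed the lowest p values. Without the NestinTK-GCV+ mice the 16 nominally higher members became 4, and with those mice as the only controls they became 33, of which 28 had an adjusted p under 0.05. Shares over all genes were not computed for these refits, so the counts are a description.

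By groups, the calls were in the striatal contrasts that include the NestinTK-GCV+ mice. Under GCV, 23 members were higher in NestinTK+ than in NestinTK- mice at an adjusted p under 0.05 and 0 were lower, against 2.12% and 1.01% of all genes. The median member difference was 0.22 (0.02 over all genes). Before adjustment 33 members were higher and 6 lower (background 9.97% and 7.74%). By the study's thresholds, p of at most 0.01 and a change of at least 2-fold, 8 members were higher, against 1.87% of genes. The 23 comprised 14 large and 9 small subunit genes.

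GCV against PBS in NestinTK- mice, which uses the same 3 libraries, gave 13 members lower and 0 higher at an adjusted p under 0.05 (background 1.65% and 0.402%). Unadjusted, 26 were lower and 4 higher (9.08% and 7.05%), and the member median was −0.21. They included Rpl30, Rpl35a, Rps27a, Rpl5, Rpl28, Rpl38, Rps23, Rpl10, Rps16, Rpl15, Rps2 and Rpl3. The 2 contrasts share the NestinTK-GCV+ mice, so they are not separate evidence. GCV against PBS is also aligned with library number, so a difference here cannot be assigned to the drug alone.

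In NestinTK+ mice, GCV against PBS gave 0 members at an adjusted p under 0.05 (background 0.0973% higher and 0.0519% lower). Unadjusted, 8 were higher and 0 lower (4.9% and 5.18%), with a median of 0.14. The transgene under PBS gave 0 members even unadjusted, where 6.41% of genes were called. The interaction of genotype and GCV was above 0 for 8 members at an adjusted p under 0.05 and below 0 for none (background 0.525% and 0.292%), and for 31 and 2 unadjusted (8.42% and 6.65%). The counts rest on few mice. Without G2 the 23 became 3, and without G1, A1, A2 or A4 they became 11, 13, 14 and 14. The 13 became 0 without G2, P1 or P3, 4 without G1 and 23 without P2. The 8 became 0 without A1, A2, G2, P1, P3 or T2 and 22 without P2. Shares of all genes called were not computed for these refits, so the shifts may not be particular to the members.

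**Figure D3:**
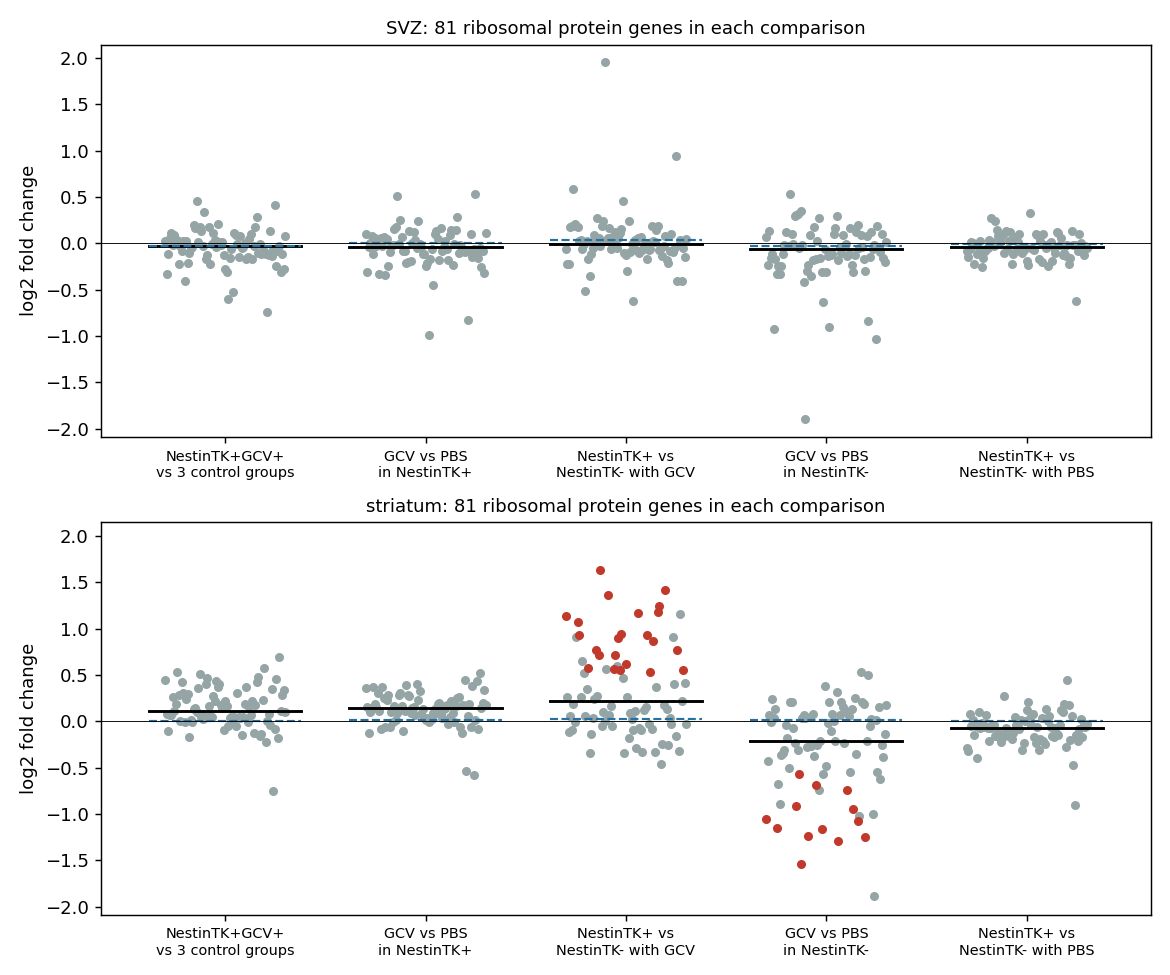
Log2 fold change of the 81 ribosomal protein genes in the pooled-control comparison and the 4 group contrasts, without the interaction, SVZ above and striatum below; red points have an adjusted p under 0.05 (edgeR), the black line is the member median and the dashed blue line the median of all tested genes. No SVZ point is red, and the red points of the striatum are 23 above 0 for NestinTK+ against NestinTK- under GCV and 13 below 0 for GCV against PBS in NestinTK-.

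Rpl30, a large subunit protein (chr15:34440505-34443640, minus strand; 24.8% of exon bases overlapped by other genes), showed the widest difference. It was at 351, 323, 295, 296 and 189 CPM in A1 to A5 and at 91.1, 70.3 and 121 CPM in G1 to G3. PBS mice were at 361, 121 and 343 CPM in P1 to P3 and at 224, 183, 283 and 249 CPM in T1 to T4. The 3 NestinTK-GCV+ mice and P2 were the 4 lowest, with P2 and G3 alike. NestinTK+ exceeded NestinTK- under GCV by 1.63 ± 0.27 on the log2 scale (adjusted p = 0.00262, edgeR), on 281 to 1513 counts per library. In the SVZ of the same mice Rpl30 was at 201, 193 and 113 CPM in G1 to G3 and 137 to 195 CPM in ablated mice.

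Rps27a, made as a fusion with ubiquitin (chr11:29545846-29548109, minus strand), followed the same order. It was at 173, 183, 156, 155 and 113 CPM in A1 to A5, 52.5, 45.3 and 77.2 in G1 to G3, 180, 74.8 and 163 in P1 to P3, and 112, 80.1, 122 and 143 in T1 to T4. The 3 G libraries and P2 were the 4 lowest. The log2 difference under GCV was 1.42 ± 0.25 (adjusted p = 0.00381, edgeR) and the interaction 1.70 ± 0.34 (adjusted p = 0.0238).

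Rpl35a, a large subunit protein mutated in Diamond-Blackfan anaemia (chr16:33056453-33060189, plus strand; named after its values were seen), was at 66.2, 69.3, 73.2, 72.1 and 41.5 CPM in A1 to A5 and 23.4, 23.02 and 28.8 CPM in G1 to G3. PBS mice stood at 81.7, 34.2 and 62.4 in P1 to P3 and 50.1, 43.6, 49.0 and 69.7 in T1 to T4. Here all 3 NestinTK-GCV+ mice were below all 12 others. The log2 difference was 1.36 ± 0.24 (adjusted p = 0.00495, edgeR) and the interaction 1.52 ± 0.33 (adjusted p = 0.0343).

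In all, 11 members had every NestinTK-GCV+ mouse below the 12 others (1.9% of genes), among them Rpl10, Rpl4 and Rps16, and 29 had them below every ablated mouse (7.13%). Rpl3 was at 186, 179 and 216 CPM in G1 to G3, 287 to 371 in A1 to A5, 297, 240 and 324 in P1 to P3, and 247 to 275 in T1 to T4. Rps4x was at 26.6, 27.3 and 30.5 CPM in G1 to G3, 45.1 to 52.2 in A1 to A5, 48.6, 31.4 and 43.3 in P1 to P3, and 29.2 to 39.4 in T1 to T4. For Rpl3 the G mice did not overlap any other mouse, and for Rps4x T2 lay among them. The 4 lowest libraries were the 3 G mice and P2 for 13 of the 23 members. P2 lay below P1 and P3 for 21 of the 23, A5 was lowest of its group for 17, and T2 lowest of its group for 22. Over all 81 members P2 lay below P1 and P3 for 46. The 23 were chosen for A above G, which favours G mice among the lowest. Shares over all genes were not computed for these counts, so they are a description.

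No member passed in the opposite direction. Rps25, a small subunit protein known for its part in internal initiation (chr9:44407139-44410427, plus strand; 24.8% overlapped; named after its values were seen), was at 577, 664 and 596 CPM in G1 to G3. It was at 395, 462, 430, 446 and 481 CPM in A1 to A5, 366, 468 and 441 in P1 to P3, and 503, 501, 516 and 333 in T1 to T4. Every NestinTK-GCV+ mouse was above all others, as also for Rps28 (2 members, background 1.28%). The 5 members of 81 with the G mice above every ablated mouse were near the share of all genes (5.86%). The log2 difference of Rps25 was −0.47 ± 0.14 (adjusted p = 0.0658, edgeR), so it did not pass.

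**Figure D4:**
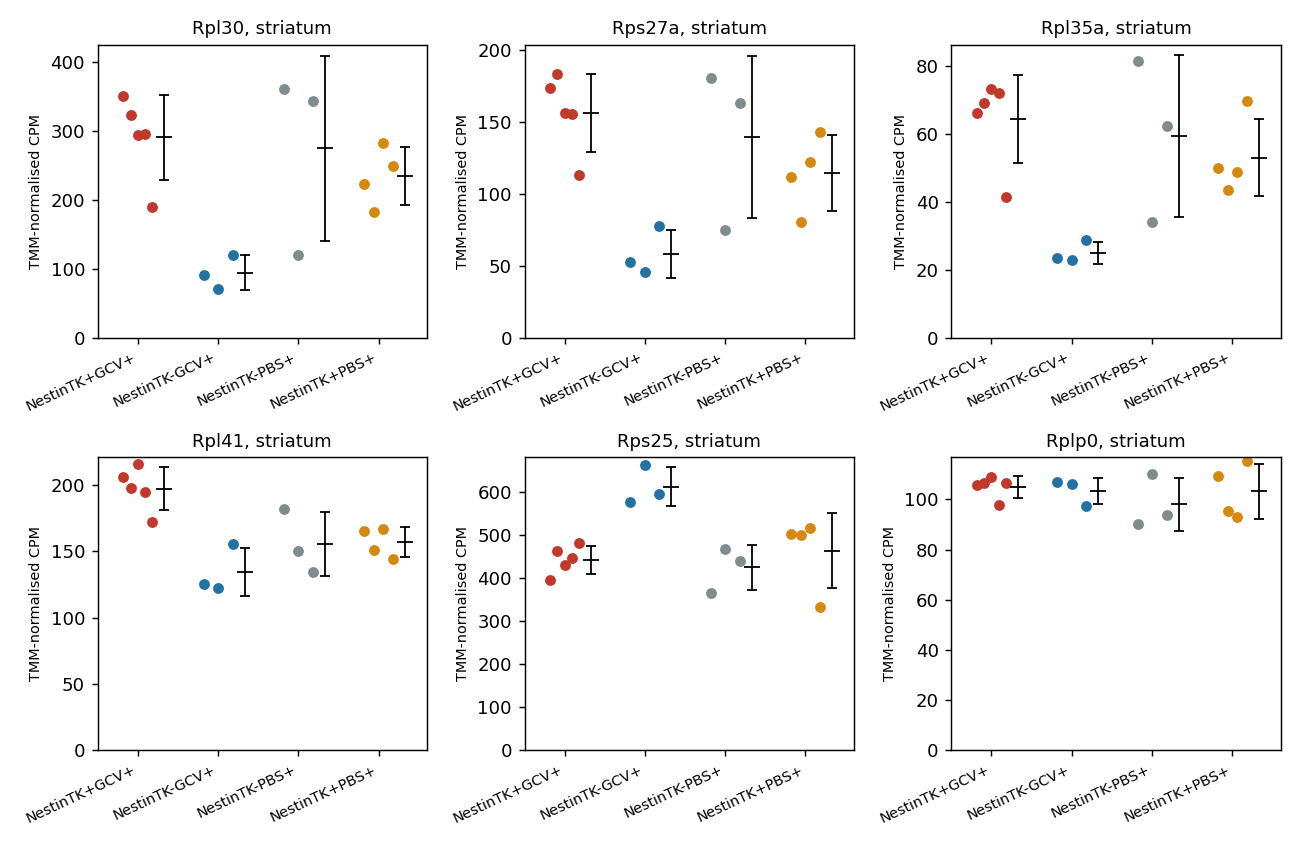
TMM-normalised CPM of 6 ribosomal protein genes in the striatum by group; points are mice and black marks are means with error bars of 1 SD, and each panel starts at 0. Rpl30, Rps27a and Rpl35a have their lowest group mean in NestinTK-GCV+ mice (Rpl30 at 70.3 to 121 CPM), Rps25 is highest there, Rpl41 is highest in NestinTK+GCV+ mice, and Rplp0 (90.1 to 115 CPM) overlaps between all groups.

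In the striatum the median correlation between 2 members was 0.14, and 62.3% of pairs were above 0. The first principal component held 60.6% of their variance, with 55 members loading in one direction and 26 in the other. The 23 members passing under GCV were chosen for A above G, so their sums in these groups are a description: 1771 to 2315 CPM in G1 to G3 and 3047 to 3963 in A1 to A5. The PBS mice were outside that contrast but part of the same fit. They were at 3898, 2563 and 3789 CPM in P1 to P3 and 3104, 2650, 3499 and 3462 in T1 to T4. All 7 lay above the G mice, and P2 and T2 lay below the A mice. Choosing members for low G and high A values favours both orders, so they are not separate evidence.

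**Figure D5:**
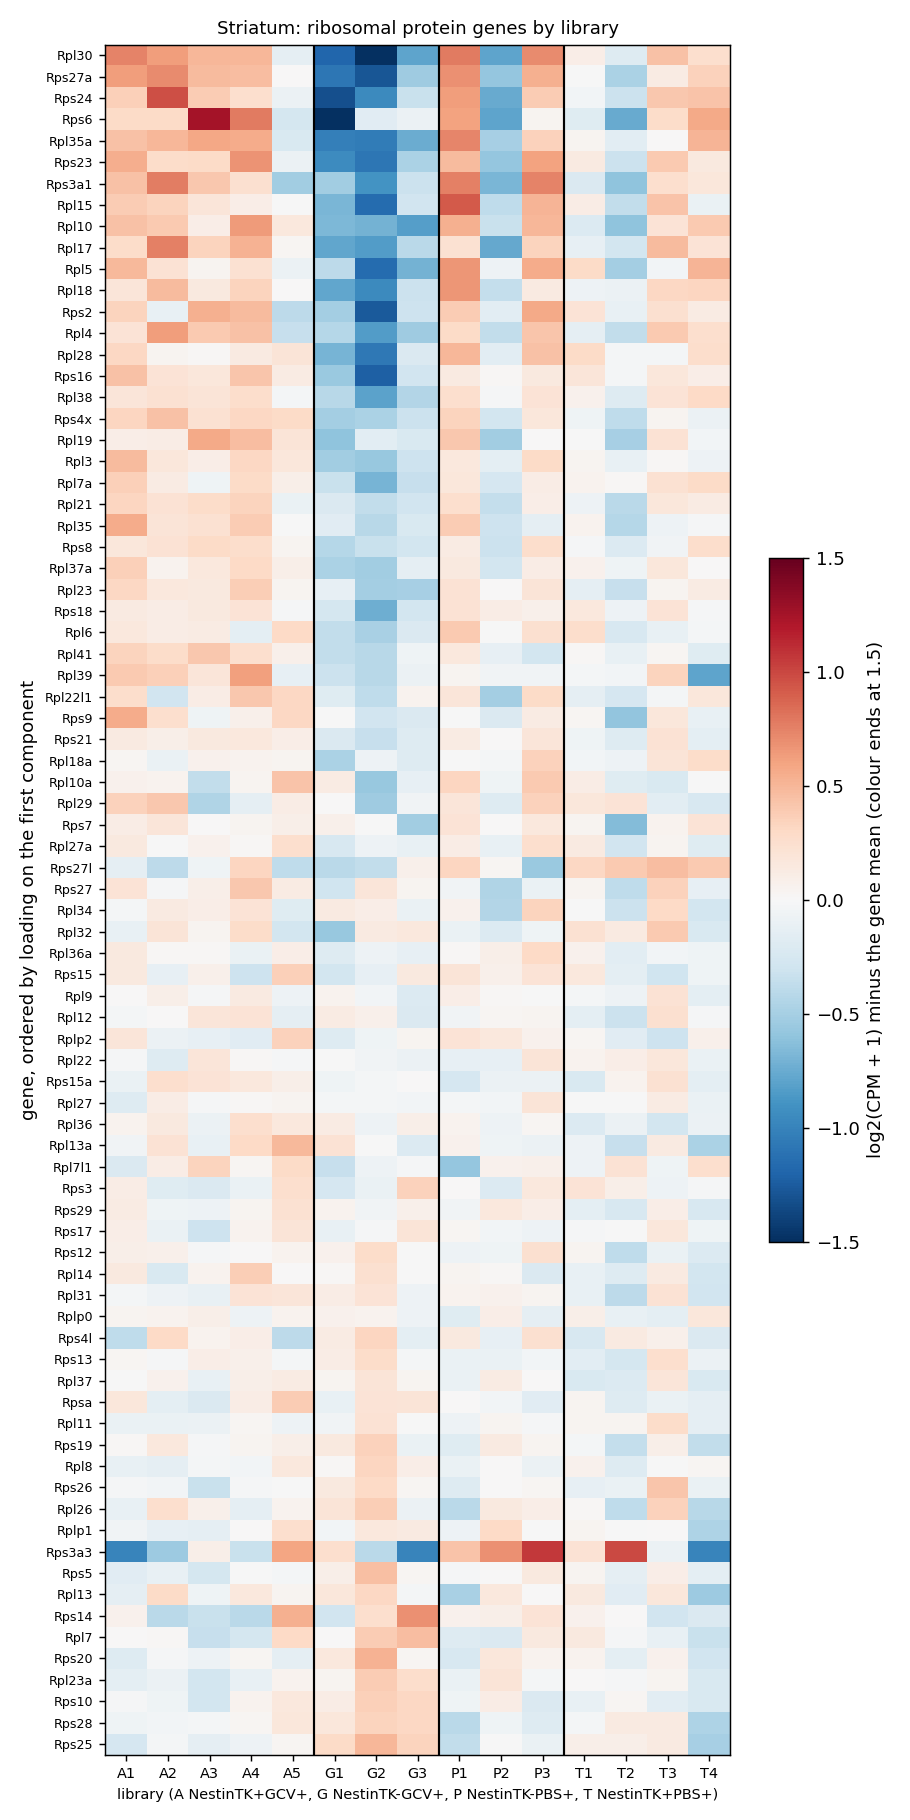
Log2(CPM + 1) of 80 striatal members, each minus its mean over the 15 libraries, with genes ordered by their loading on the first component and libraries by group. The upper genes load positively, and those at the top are low (blue) in G1 to G3 and less so in P2, and the lower genes, down to Rps25, are mostly at or above their mean in G1 to G3.

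Of the stalk proteins, none passed under GCV. In the striatum Rplp0 was at 90.1 to 115 CPM in all 15 mice, with a log2 difference of 0.02 ± 0.13 under GCV. Rplp1 and Rplp2 differed by −0.09 and 0.11. Rpl5 and Rpl11, which with 5S RNA bind Mdm2 and tie ribosome assembly to p53, were unlike each other: Rpl5 was higher under GCV in NestinTK+ mice (0.94 ± 0.23, adjusted p = 0.0252), and Rpl11 differed by −0.12 ± 0.12. Rps6, the S6 kinase substrate, differed by 1.16 ± 0.44 (adjusted p = 0.151) on 7 to 64 counts per library. Rps19 differed by −0.08 and Rpsa by −0.02.

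No paralog passed the adjusted test in either tissue. In the ablated SVZ, Rpl22l1 differed by 0.03 ± 0.16 and its partner Rpl22 by −0.41 ± 0.23, while Rpl7l1 differed by −0.60 ± 0.39 and Rps27l, a p53 target, by −0.74 ± 0.42 (adjusted p = 0.651 and 0.603). Of the ribosomal proteins outside the symbol rule, Rpl36al in the striatum was at 16.3, 12.8 and 20.1 CPM in G1 to G3 and 25.6 to 51.4 CPM in A1 to A5, a log2 difference under GCV of 1.32 ± 0.34 (adjusted p = 0.0353). In the same striatal contrast Fau (0.22 ± 0.14) and Rack1 (−0.18 ± 0.13) did not pass.

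Gene lists around the ribosome were read in the same striatal contrast. For NestinTK+ against NestinTK- under GCV, 2 of 22 other TOP mRNAs (translation factors and the like) were higher at an adjusted p under 0.05 and 0 lower, with a median of 0.07. Of 62 ribosome biogenesis genes 2 were higher (median −0.00), of 24 mTOR and TOP control genes 0 passed (3 higher and 3 lower unadjusted), and of 75 mitochondrial ribosomal proteins 2 were higher (median −0.03). Of 76 nuclear-encoded respiratory chain genes 11 were higher and 0 lower (median 0.03). These lists are set against 2.12% of all genes.

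Some marker lists differed in the same striatal libraries. Microglial markers took 0.0611 to 0.0703% of counts in G1 to G3 and 0.0504 to 0.0617% elsewhere, with overlap, as P2 lay above G1. Ependymal markers took 0.00126 to 0.00182% in G1 to G3 against 0.0027 to 0.00706% elsewhere. Ribosomal pseudogenes with -ps names took 0.04 to 0.058% in G1 to G3 and 0.0281 to 0.0479% in the others, with overlap. Nuclear noncoding RNAs such as Malat1 and Meg3 took 1.88 to 2.09% in A1 to A5, above all controls (0.62 to 1.7%), and G1 to G3 were spread over the control range. T4 stood apart in its markers. Spiny neuron markers took 0.446% of its counts against 0.868 to 1.12% in the other striata, and Ttr 0.142% against at most 0.003%. Oligodendrocyte (0.659%) and neuroblast (0.0924%) markers were highest there. The part of these differences in the result was not tested.

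Many members share sequence with other annotated genes. In 50 of the 81 striatal members over 50% of the 50-base words in the last 300 bases of the transcript also occur in another annotated gene, and in 15 none do. Reads from the former may not be placed uniquely, so their levels are less certain; for Rpl30 the share was 80.9% and for Rps23 12.4%. Across the 81 genes the rank correlation of this share with the log2 difference under GCV was 0.12. The 15 members with no shared word had a median difference of 0.05, with 2 passing. The 26 with a share up to the median had 0.25, with 9 passing, and the 40 above it 0.26, with 12 passing. With mean CPM it was −0.52: the 40 members below the median level had a median difference of 0.55, the other 41 a median of 0.00. Genes are not independent replicates, and these are descriptions. The 16 members with a run of 5 or more pyrimidines from the RefSeq start had a median of 0.55, with 6 passing. The 43 with a shorter run or none had 0.17, with 11 passing. Here a thymine start also counted, and the longest run was taken where a gene had several starts. Members without a start window were left out. For large and small subunit genes the medians were 0.26 and 0.15.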

How the data were processed

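RNA from the SVZ (SMART-Seq v4, 10 amplification cycles) and striatum (QuantSeq 3′ FWD) was sequenced single-end on a NextSeq 500. Per the labels' processing notes, the authors trimmed reads with Trimmomatic 0.36, aligned them to mm10 (GRCm38) with STAR 2.5.3a and counted genes with featureCounts against Gencode; a strand setting is not given in the sources used here. The deposited values are raw counts per gene, 1 table a tissue, without normalization.

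Genes over 1 CPM in at least 3 libraries were kept, as in the study's methods. Counts were TMM-scaled and tested with edgeR 4.0.16 (quasi-likelihood, R 4.3.3), Benjamini-Hochberg over all tested genes, as 5 ablated against 10 pooled controls and as 4 group means with 5 contrasts. The study used limma; limma 3.58.1 (voom) and DESeq2 1.42.0 were alternatives. Scripts were tested on simulated data. CPM printed here are TMM-normalised. Each library is 1 mouse; n limits precision, and counts carry no molecular identifiers. Members, gene lists and tests were chosen with earlier results of these data known. Named genes were up to 5 members a direction with the lowest p in the ablated comparison (unadjusted p under 0.05), the 3 highest and 3 lowest by mean CPM, the 3 lowest interaction p values, all paralogs, and fixed stalk, assembly and signalling members. Transcript lengths and overlaps came from GENCODE vM21 on GRCm38. Values of single genes that fall under the naming rule but are not given are not reported here.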

Additional observations from a re-analysis of the deposited data

Results flagged for a closer look

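In the striatum 8 members had an interaction of genotype and GCV above 0 at an adjusted p under 0.05 (edgeR). That is, the fitted difference of GCV from PBS was higher in NestinTK+ than in NestinTK- mice. None of the 8 passed when A1, A2, G2, P1, P3 or T2 was left out. Among them, the log2 interaction was 1.85 for Rpl30, 1.70 for Rps27a, 1.52 for Rpl35a, 1.42 for Rpl10, 1.33 for Rps23, 0.98 for Rps4x and 0.85 for Rpl3. Adjusted p values ran from 0.0238 for Rps27a and Rpl30 to 0.0498 for Rps23 and Rps4x.

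Single mice stood apart from their group (Dixon's criterion, groups of 4 or 5) in 3 of 42 groups looked at, and chance gives about 1 in 20. These were Rps14 in the SVZ of T4 (719 CPM), Rplp1 in the striatum of T4 (1271 CPM) and Rplp0 in the striatum of A4 (97.6 CPM).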

How the results depend on the processing

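No paired analysis was possible because every comparison is between groups of different mice, and replicate numbers, given in accession order, tie none across groups; the 2 tissues come from the same mice but were not compared. The SVZ median stayed between −0.16 and 0.04 under every alternative to the pooled-control comparison, and 0 members passed an adjusted p under 0.05 in any SVZ fit. With total counts only, the SVZ median of all genes moved to −0.16 as well. Nominal SVZ calls moved: against 2 lower members there were 10 with total counts only, 4 with no filter on low counts, and 1 each with DESeq2 size factors, limma-voom, NestinTK-GCV+ mice as the only controls, mouse number series as a covariate, or without the 3 mice with Ttr. Against 1 higher there were 2 with no filter and 0 with NestinTK-GCV+ controls only. Leaving out 1 mouse gave 1 to 4 lower and 1 to 2 higher.

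In the striatum the pooled-control median stayed between 0.07 and 0.19. Members higher at an adjusted p under 0.05 went from 0 to 1 with DESeq2 (Rpl41, adjusted p = 0.0246) and 28 with NestinTK-GCV+ controls only, where 1 was lower and 33 higher and 7 lower unadjusted. With NestinTK+PBS+ controls only there were 6 higher and 1 lower unadjusted, and without the NestinTK-GCV+ mice, chosen after seeing the data, 4 higher. Leaving out 1 mouse gave 7 to 21 higher and 0 to 2 lower.

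In the SVZ 4-group fit, total counts only moved the member median of the interaction from 0.03 to −0.17. That of genotype under PBS went from −0.04 to 0.04. In the striatal 4-group fit, scaling changed the direction of no member median. For NestinTK+ against NestinTK- under GCV, 23 to 29 members were higher and 0 to 2 lower across alternatives, the 2 lower with DESeq2; leaving out 1 mouse gave 3 (without G2) to 29 higher and 0 to 1 lower, with 11 without G1, 13 without A1, and 14 without A2 or A4. For GCV against PBS in NestinTK- DESeq2 gave 20 lower and 2 higher; leaving out 1 mouse gave 0 to 23 lower and 0 to 2 higher, with 0 without G2, P1 or P3 and 4 without G1. For the interaction DESeq2 gave 21 and limma-voom, added after seeing the data, 4; leaving out 1 mouse gave 0 to 22 higher and 0 to 1 lower. It gave 0 without A1, A2, G2, P1, P3 or T2, 1 without A3, 3 without A4 or T1, 5 without G1 or T3, 14 without A5 and 17 without T4. The causes were not tested. In neither tissue were shares of all genes called computed for the alternatives or with 1 mouse left out. The member counts from those fits therefore have no background beside them. In the pooled-control comparison Rplp0, Rps9 and Rpl29 (SVZ) and Rpl41, Rps4x, Rpl35, Rpl3 and Rpl17 (striatum) kept their sign in every fit run. So did Rps27a and Rpl30 in the striatal contrasts of genotype under GCV, GCV in NestinTK- and the interaction. The other genes described here were not followed through the alternatives. The lowest striatal members (Rps6 at 7 to 64 counts) are limited by depth.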
